A study of Homo sapiens with 2 samples.

Results

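Peaks of JUNB on sequence outside the assembled chromosomes of the human genome were compared between untreated and etoposide-treated IMR-90 cells. The members were all rows of both deposited peak lists that are named for a contig, that is for no chromosome from 1 to 22, X, Y or M. There were 1741 such peaks of 60081 in all, namely 927 of 33491 in the untreated list and 814 of 26590 in the etoposide list. IMR-90 is an established line of human lung fibroblasts. JUNB was profiled by CUT&RUN, in which an antibody leads a nuclease to its target on chromatin and the DNA cut free is sequenced. A library from cells that had no treatment was set beside a library from cells labelled as treated with etoposide (ETO), and the dose and the time are not given in the sources used here. Each condition had 1 library, so no spread between cultures could be had, no test of the treatment was run, and every interval below is an exact 95% binomial (Clopper-Pearson) interval that covers counting error only.

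JUNB is a basic leucine zipper protein and one of the subunits that pair to form the transcription factor AP-1, which binds short DNA sites near many stress and growth genes. Etoposide traps topoisomerase II on DNA and leaves double-strand breaks, and it is a common means to bring cultured fibroblasts into senescence. The sequence outside the chromosomes is of several kinds. Unplaced contigs have no known chromosome, and unlocalised contigs have a chromosome without a position on it. Both kinds are rich in satellite and other repeated DNA. Alternate loci and patches are other versions of stretches that the chromosomes already hold, so that most of their sequence has a close copy in the main assembly.

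Other versions of known genes are the part of this sequence that can be read against the annotation. For 13 alternate loci and patches the spacing of the peaks matched the spacing of peaks on 1 chromosome (described below), which gave their peaks a counterpart peak on that chromosome. In 3 cases the counterpart's summit lay in the window from 250 bases before to 50 bases after a gene's start, and 4 genes had such a window. They are shown because they are the contig peaks that could be tied to a promoter. Sequences are from RefSeq on GRCh38.p14, of the chromosome and not of the contig, written 5′ to 3′ on the strand of the gene. In the ZYX and TINF2 windows capitals mark the bases within 10 bp of the counterpart's summit, and in the FAM131B-AS2 and NANOS3 windows they mark a match to TGANTCA.
ZYX, chr7:143381095-143381394, plus strand: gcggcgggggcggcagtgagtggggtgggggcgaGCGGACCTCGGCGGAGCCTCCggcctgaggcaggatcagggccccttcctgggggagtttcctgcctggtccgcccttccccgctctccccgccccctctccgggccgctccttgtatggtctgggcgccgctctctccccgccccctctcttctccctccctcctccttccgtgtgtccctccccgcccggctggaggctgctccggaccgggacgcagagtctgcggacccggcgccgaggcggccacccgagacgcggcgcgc
FAM131B-AS2, chr7:143380976-143381275, minus strand: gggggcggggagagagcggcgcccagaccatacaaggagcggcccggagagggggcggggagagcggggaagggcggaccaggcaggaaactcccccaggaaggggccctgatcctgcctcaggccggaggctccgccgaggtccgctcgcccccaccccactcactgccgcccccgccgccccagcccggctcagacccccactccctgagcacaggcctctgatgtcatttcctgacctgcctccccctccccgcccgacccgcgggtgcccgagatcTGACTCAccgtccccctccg
TINF2, chr14:24242625-24242924, minus strand: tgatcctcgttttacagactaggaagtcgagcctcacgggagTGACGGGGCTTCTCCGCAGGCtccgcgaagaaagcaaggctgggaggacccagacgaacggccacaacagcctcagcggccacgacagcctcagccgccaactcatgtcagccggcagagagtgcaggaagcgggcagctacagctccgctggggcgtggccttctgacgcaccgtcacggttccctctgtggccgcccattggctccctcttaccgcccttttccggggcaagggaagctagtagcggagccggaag
NANOS3, chr19:13861786-13862085, plus strand: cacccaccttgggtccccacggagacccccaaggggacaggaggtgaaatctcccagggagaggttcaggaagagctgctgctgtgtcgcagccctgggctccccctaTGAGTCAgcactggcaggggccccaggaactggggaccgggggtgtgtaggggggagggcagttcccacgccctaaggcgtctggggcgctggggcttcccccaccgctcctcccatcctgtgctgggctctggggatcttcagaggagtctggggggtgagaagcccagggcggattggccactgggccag

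ZYX encodes zyxin, a protein of focal adhesions and actin fibres, and FAM131B-AS2 is an antisense RNA gene on the other strand, so that their windows overlap. The etoposide peak on the patch KZ208912.1 had 14 fragments at its summit, at base 517 of the contig, and its counterpart at base 143381139 of chromosome 7 had 16. An untreated peak of 11 fragments overlapped it on the contig. TINF2 encodes a protein of the shelterin complex that caps telomeres. The untreated peak on the patch KZ208920.1 had 14 fragments and its counterpart on chromosome 14 had 13, and neither had a counterpart in the etoposide list. NANOS3 encodes an RNA-binding protein of germ cells, and the etoposide peak on the patch ML143376.1 had 5 fragments on the contig and 7 on chromosome 19. The untreated library had more fragments at that place, with 12 on the contig and 10 on the chromosome, and its summit lay beyond the window. TGANTCA is the core AP-1 site and reads the same on both strands. It was found 1 time in the window of FAM131B-AS2, 147 bp from the summit, and 1 time in that of NANOS3, 175 bp from the summit. Neither it nor TGACGTCA, the cyclic AMP response element that AP-1 dimers can also bind, was in the ZYX and TINF2 windows. Of 35116 RefSeq promoter windows of this length, 7.71% held TGANTCA and 1.85% held TGACGTCA, and a match to 1 of these motifs is never a match to the other.

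The number of fragments stacked at a summit, and the local background around it, were worked out from the deposited values. The untreated library had a median of 15 fragments and the etoposide library a median of 13 over all peaks of each list. Total read numbers are not part of peak lists. The relative depth of etoposide to untreated was put at 0.836 from the lowest backgrounds and the smallest widths, which rests on assumptions about the peak caller. Fold over background and -log10 q below come from the authors, and each served only to describe or rank peaks of its own list.

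Contig peaks made up 2.77% (interval 2.59 to 2.95) of the untreated list and 3.06% (2.86 to 3.28) of the etoposide list. They lay on 253 contigs, of which 230 had untreated peaks, 215 had etoposide peaks and 192 had both. The etoposide list held 0.878 times as many contig peaks as the untreated list (0.798 to 0.966). On chromosomes 1 to 22 and X it held 0.791 times as many (0.778 to 0.804), from 32550 and 25739 peaks. The direction of the contig ratio depended on the length of the lists. Among the 10000 strongest peaks of each list, ranked by -log10 q here and below, 240 untreated and 308 etoposide peaks were on contigs, a ratio of 1.28 (1.08 to 1.53), beside 0.992 (0.964 to 1.02) on the chromosomes.

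By class, the ratios fell on both sides of 1. Unplaced contigs had 64 untreated and 77 etoposide peaks, a ratio of 1.20 (0.852 to 1.70). Unlocalised contigs had 44 and 53, also a ratio of 1.20 (0.792 to 1.84). Joined, these 2 classes had 108 and 130 peaks, a ratio of 1.20 (0.925 to 1.57) whose interval includes 1. Alternate loci had 425 and 369, a ratio of 0.868 (0.753 to 1.001), and patches had 394 and 315, a ratio of 0.799 (0.687 to 0.930). Among the 23 chromosomes taken singly the ratio ran from 0.689 on chromosome 20 to 0.855 on chromosome 18. It exceeded 1 on 0 of these 23. Chromosomes Y and M are not among them. Y had more etoposide peaks, with 10 untreated and 35 etoposide, and M had fewer, with 4 and 2. The cause of the difference on Y was not tested. The patches lay within the range of the 23 chromosomes and the alternate loci just above it. The unplaced and unlocalised classes lay above that range. Taken singly, each of these had an interval that reaches into the range, and the interval of both joined lies wholly above it. That depended on 1 contig, since without the unlocalised GL000225.1 the joined ratio was 1.13 (0.846 to 1.501), an interval that reaches into the range.

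**Figure D1:**
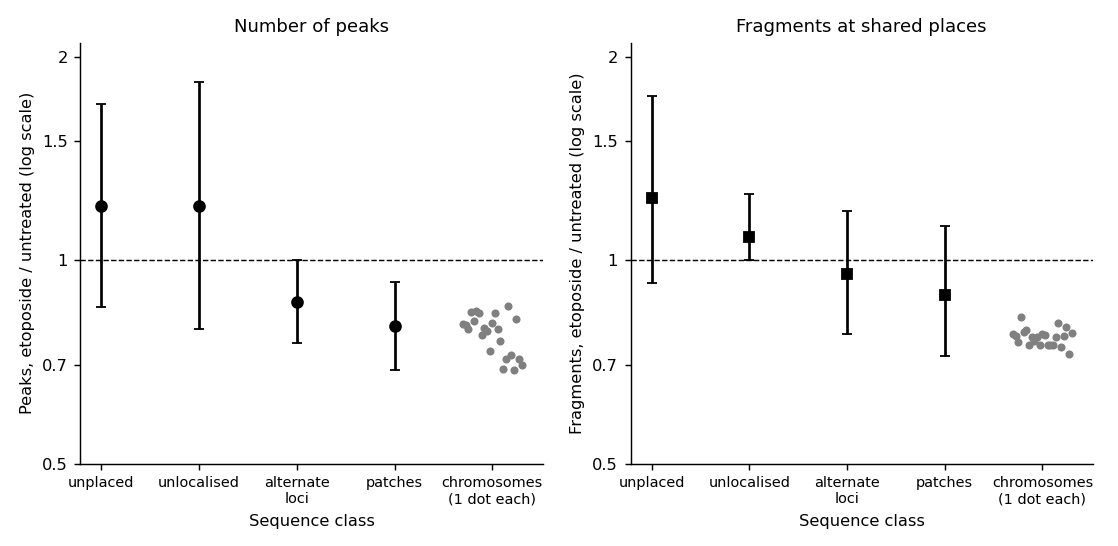
Left, the number of etoposide peaks divided by the number of untreated peaks in each contig class, with the 95% interval as the bar. Right, the median ratio of fragments at places shared by both lists, with the quartiles as the bar. Grey dots are chromosomes 1 to 22 and X, 1 dot each, and both axes are logarithmic. Unplaced and unlocalised contigs sit above 1 in both panels, and the 23 chromosomes run from 0.689 to 0.855 on the left and from 0.727 to 0.824 on the right.

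Peaks on unplaced and unlocalised contigs also held more fragments and had more signal around them. Their median was 25 fragments among untreated and 26 among etoposide peaks, against 12 and 11 on alternate loci and patches and 15 and 13 on the chromosomes. The local background was at least 3 fragments at 52.8% of their untreated and 50% of their etoposide peaks. On alternate loci and patches those shares were 4.64% and 4.53%, and on the chromosomes 8.78% and 2.18%. Unplaced and unlocalised contigs made up 0.322% of the untreated and 0.489% of the etoposide list. They held 10 of the 100 strongest untreated and 16 of the 100 strongest etoposide peaks. Several of these peaks are on short contigs. If the background was taken over a stretch longer than the contig, their -log10 q would come out too high. The length of that stretch is not given in the sources used here. The authors' median fold over background was alike across the classes, at 6.07 for unplaced and unlocalised contigs and 6.71 for alternate loci and patches in the untreated list, and 6.60 and 6.76 in the etoposide list.

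A peak was taken as shared when at least 1 bp of it was covered by a peak of the other list. Of the untreated contig peaks 452 (48.8%) had no such counterpart, beside 49.0% of untreated peaks on the chromosomes. Of the etoposide contig peaks 345 (42.4%) had none, beside 35.2% on the chromosomes. The untreated share was thus at the level of the chromosomes. Within the classes, 71.3% of the untreated peaks on unplaced and unlocalised contigs were shared (61.8 to 79.6), against 48.6% on alternate loci and patches (45.1 to 52.1). The etoposide shares were 58.5% (49.5 to 67.0) and 57.5% (53.7 to 61.2), which lie within each other's intervals.

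Both lists had a peak at 459 joined places on contigs, and the fragments at the stronger summit of each list were compared there. The median ratio of etoposide to untreated fragments was 1.24 (quartiles 0.925 and 1.75) at 42 places on unplaced contigs and 1.08 (1 and 1.25) at 31 on unlocalised contigs. It was 0.955 (0.778 and 1.18) at 197 places on alternate loci and 0.889 (0.722 and 1.13) at 189 on patches. At 16167 shared places on the chromosomes it was 0.769 (0.619 and 1), and the medians of single chromosomes ran from 0.727 on chromosome 22 to 0.824 on chromosome 4. Division by the relative depth turned the median on alternate loci and patches above 1, to 1.11. It was then 1.35 on unplaced and unlocalised contigs and 0.920 on the chromosomes. Etoposide fragments were at least 1.5 times the untreated ones at 47 of the 459 contig places (10.2%), beside 3.72% of the places on the chromosomes. They were at least 1.5 times lower at 71 (15.5%), beside 34.2% on the chromosomes. Those counts depend on the depth, since they became 98 higher and 33 lower after division by the relative depth, beside 8.69% and 16.2% on the chromosomes. On unplaced and unlocalised contigs, 19 of 73 places were higher by 1.5 times and 4 were lower, and after that division 28 were higher and 1 was lower.

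The local background moved with these ratios. On short contigs it may include the fragments of the peaks themselves, so there it is no separate observation. The background was higher in the etoposide library at 54 of the 73 places on unplaced and unlocalised contigs (74.0%). It was so at 108 of 386 on alternate loci and patches (28%) and at 9.96% of the places on the chromosomes. Its part in the ratios was not tested. Where the background was at least 3 in both libraries, the median ratio was 1.16 at 42 places on unplaced and unlocalised contigs and 0.765 at 421 places on the chromosomes. The background was not matched there, since it was higher in the etoposide library at 37 of those 42 places (88.1%) and at 85 of those 421 (20.2%). The ratios were also spread over many contigs. Of the 30 unplaced and unlocalised contigs with a shared place, 24 had a median ratio above 1, 5 had one below 1 and 1 stood at 1. These contigs are no independent measurements of the treatment, since all their ratios come from the same 2 libraries. They are also rich in repeated DNA, so the reads of 1 contig may have been given to another. Most of the 30 had only 1 shared place, so that their median is a single ratio. Some of these rest on few fragments, such as KI270340.1 with 5 untreated and 9 etoposide.

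**Figure D2:**
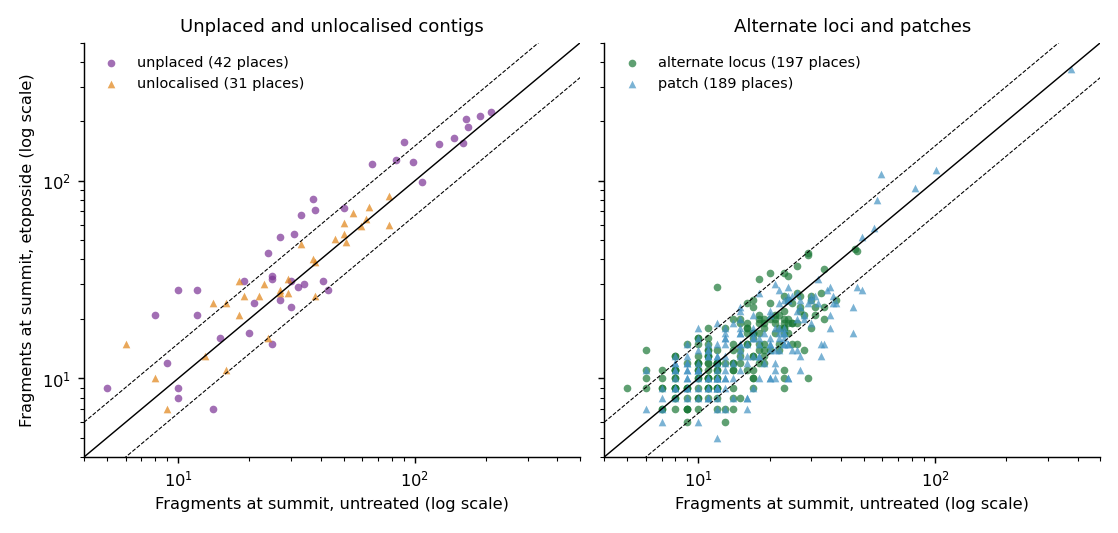
Fragments at the summit in the untreated library (horizontal) and the etoposide library (vertical) at 459 places on contigs where both lists have a peak. Both axes are logarithmic, the solid line marks equal numbers and the dashed lines a 1.5-fold difference. Of the 73 places on unplaced and unlocalised contigs, 50 lie above the solid line, and of the 386 on alternate loci and patches, 142 do.

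The strongest contig peak was on the patch ML143380.1. It spanned ML143380.1:78939-80192 in the untreated list with 376 fragments over a background of 36.8, and its -log10 q of 225.5 was the highest of the whole list. The etoposide list had it at ML143380.1:78920-80192 with 367 fragments and a background of 37.8, a ratio of 0.976 (0.843 to 1.13). Places elsewhere on this patch had fewer fragments in the etoposide library. At ML143380.1:318243-318651 there were 45 untreated and 17 etoposide fragments, a ratio of 0.378 (0.203 to 0.673). At ML143380.1:121242-121895 there were 27 and 13, a ratio of 0.481 (0.228 to 0.966).

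Most of the next strongest peaks were on short unplaced contigs. KI270310.1 had 126 untreated and 154 etoposide fragments over backgrounds of 4.22 and 5.39, and a fold over background of 24.3 in both lists. KI270337.1 had 90 and 157 fragments with the summit at base 834 in both lists. KI270303.1 had 83 and 127. KI270466.1 had 1 untreated peak of 98 fragments from base 56 to 1204, and the etoposide list had 2 peaks of 124 and 125 fragments over the same stretch. KI270467.1 had 189 and 213 fragments over backgrounds of 23.4 and 26.4. In each of these 5 contigs both the fragments and the background were higher in the etoposide library. Both etoposide peaks of KI270466.1 had a background of 7.88, so on contigs this short it may include the fragments of the peaks. Its rise with them is then no separate observation. The length of the stretch that gave the background is not stated in the sources used here. Were it longer than the contig, the background would come out too low and the fold and -log10 q too high.

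KI270438.1 carried 5 peaks in each list, and all 10 were shared. Its untreated summits held 147 to 209 fragments and its etoposide summits 156 to 223, over backgrounds of 21.4 to 46.8 and 22.1 to 48.2. The ratio ran from 0.975 to 1.25 over the 5 places, and 4 of them were higher in the etoposide library. On KI270333.1, which was chosen after its values were seen, the 3 shared places had 33, 66 and 27 untreated fragments and 67, 122 and 52 etoposide fragments. The background there was 6.42 untreated and 10.2 etoposide. KI270330.1, also chosen afterwards, went the other way, with a ratio of 0.6 at its 1 shared place.

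GL000216.2 and GL000225.1 are longer contigs of the unplaced and unlocalised classes. GL000216.2 had 9 untreated and 10 etoposide peaks, and its strongest, at GL000216.2:149379-149826, had 107 untreated and 99 etoposide fragments. Its median ratio over 7 shared places was 0.906, with a range from 0.5 to 1.79, so that the places on this contig moved in both directions. GL000225.1 had 13 untreated peaks, all shared, and 23 etoposide peaks, of which 13 were shared. The strongest, at GL000225.1:25514-25825, had 78 and 84 fragments. The ratio over its 13 shared places had a median of 1.08 and ran from 0.684 to 1.5. The 10 etoposide peaks without a counterpart on it held 10 to 36 fragments. Without this contig the ratio of peak numbers of the unplaced and unlocalised classes was 1.13 (0.846 to 1.501).

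Among the contig places with the 5 highest ratios, 2 were on short unplaced contigs. KI270422.1 had 10 untreated and 28 etoposide fragments, a ratio of 2.80 (1.32 to 6.46), and KI270544.1 had 8 and 21, a ratio of 2.63 (1.12 to 6.85). The unlocalised contig GL000205.2 had 6 and 15 fragments at GL000205.2:185171-185372, a ratio of 2.50 (0.917 to 7.86) whose interval includes 1. KI270853.1:1073592-1073800 had 12 and 29, a ratio of 2.42 (1.20 to 5.20). GL000253.2, a version of the major histocompatibility complex, had 6 and 14 at GL000253.2:3167857-3168267, a ratio of 2.33 (0.842 to 7.41). The 5 lowest ratios were all on alternate loci and patches. They were 0.345 (29 and 10 fragments) and 0.391 (23 and 9) on KI270857.1, 0.378 on ML143380.1, 0.394 (33 and 13) on ML143377.1 and 0.407 (27 and 11) on KZ208921.1.

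Peaks without a counterpart were ranked by -log10 q, which weighs the fragments against the background. The first 5 of the untreated list were on KI270796.1, with 25 fragments at KI270796.1:32112-32813, on GL000252.2 with 17, on KZ208915.1 with 24, on KI270853.1 with 21 and on JH159146.1 with 27. The first of the etoposide list was on the unplaced contig KI270317.1, with 24 fragments over a background of 0.605 at KI270317.1:1318-1584. The others were on KI270905.1 with 19 fragments, GL000216.2 with 20, GL000225.1 with 27 and KI270709.1 with 57 over a background of 13.1. All 5 of the untreated ones were on alternate loci or patches, as were 421 of all 452 untreated contig peaks without a counterpart. Of the 5 etoposide ones, 4 were on unplaced or unlocalised contigs, beside 54 of all 345 etoposide contig peaks without a counterpart.

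Counted contig by contig, 114 of the 253 contigs had more untreated peaks, 66 had more etoposide peaks and 73 had equal numbers. The untreated list alone had peaks on 38 contigs and the etoposide list alone on 23, with at most 4 peaks on any of them. Most of these contigs could not be in both lists, since 48 contigs had only 1 peak over both lists together. No contig had 5 or more peaks in 1 list and 0 in the other. GL000226.1, named after its values were seen, had 0 untreated and 4 etoposide peaks, of 20 to 28 fragments. KI270713.1 and KI270861.1, also named afterwards, had 4 untreated and 0 etoposide peaks each.

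The 20 contigs with most peaks held 351 untreated and 329 etoposide peaks, which is 37.9% and 40.4% of those on contigs. They were 14 alternate loci, 5 patches and the unlocalised GL000225.1. KZ208915.1 led with 53 untreated and 46 etoposide peaks, of which 28 and 27 were shared. KV880768.1 had 29 and 21, KI270853.1 27 and 20, and both KI270857.1 and KI270905.1 had 22 and 22. The widest gaps in favour of the untreated list were 8 on KV880768.1 and 7 each on KZ208915.1, KI270853.1 and GL339449.2, the last with 19 and 12. After GL000225.1, the widest gap in favour of the etoposide list was 6 on GL000252.2, with 12 and 18.

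**Figure D3:**
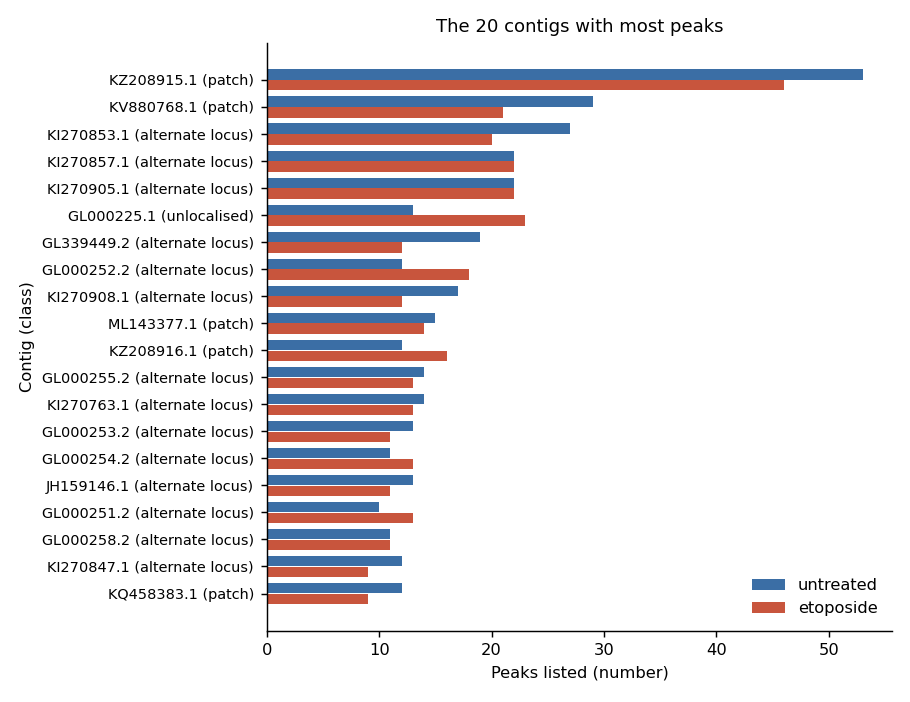
Number of peaks in the untreated list (blue) and the etoposide list (red) on the 20 contigs with most peaks in both lists together, with the class of each contig in brackets. Of the 20, 12 have more untreated peaks, 5 have more etoposide peaks and 3 have equal numbers, and GL000225.1 stands out with 13 against 23.

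The major histocompatibility complex, which holds the HLA genes of antigen presentation, has 7 alternate versions, GL000250.2 to GL000256.2. They had 72 untreated and 78 etoposide peaks, a ratio of 1.08 (0.776 to 1.51). GL000250.2 had 1 and 2, and the other 6 had between 10 and 14 untreated and between 8 and 18 etoposide peaks each. The matching stretch of chromosome 6 had 14 and 15. Apart from GL000250.2, single versions thus held numbers of the same order as the chromosome. The median was 10 fragments in both lists, below the 15 and 13 of all peaks, and single places held more, such as GL000253.2:2079733-2080277 with 27 untreated and 26 etoposide fragments. Of the untreated ones 52.8% were shared (40.7 to 64.7), and of the etoposide ones 50% (38.5 to 61.5). Because the 7 contigs are versions of 1 stretch, the same place may be counted several times. The intervals of this paragraph treat every peak as separate, so they may be too narrow.

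Alternate loci and patches were set against the chromosomes through the spacing of their peaks. A contig with at least 5 peaks was taken as aligned when summits of at least 4 joined regions lay within 15 bp of chromosomal summits of the same list at 1 fixed offset. There also had to be at least 2 regions more than at any other place, meaning another chromosome or an offset more than 2000000 bp away. Of 102 contigs tried, 13 were aligned, namely 5 of 40 alternate loci, 8 of 49 patches and 0 of 13 unplaced or unlocalised contigs. KI270763.1 had the most support, with 15 of its 18 regions at 1 offset on chromosome 1 and 4 at the next best place. KI270847.1 had 11 of 17 on chromosome 14. The others had 4 to 8, so that KI270853.1, with 8 of 37 on chromosome 16, and KI270857.1, with 6 of 33 on chromosome 17, rest on fewer matches. Of the 274 peaks on aligned contigs, 171 had a counterpart, that is a chromosomal peak of the same list with its summit within 100 bp of a predicted place. Besides the best offset, any offset of the same orientation within 2000000 bp of it that held at least 3 regions could predict a place. Unrelated places held up to 4 regions for the aligned contigs, so some counterparts rest on a looser match than the alignment. The summit positions were used to align the contigs and are no finding. The fragments were not used to align them, but both copies had to be listed as peaks, which depends on fragments. That may bring the fragments of the copies closer together, since contig peaks without a counterpart did not enter.

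Where both copies were listed, the fragments on the contig and on the chromosome were close to equal. Over the 171 peaks the median ratio of contig to chromosomal fragments was 1 (quartiles 0.917 and 1.1), and 164 (95.9%) were within 1.5-fold of each other. In the untreated list the median was 1.05 over 82 peaks and in the etoposide list 1 over 89. The numbers were the same at 35 of the 171, and the extremes were 0.579 and 1.64. The lower extreme was a peak of 11 fragments on KI270857.1, set against a chromosomal peak of 19. That chromosomal peak was also the counterpart of a second peak of this contig, with 23 fragments, so this extreme may not compare copies of the same place. Contig peaks with a counterpart held a median of 12 fragments, and the peaks of the same contigs without one held 10. On the chromosomes, 82 of the 141 untreated peaks (58.2%) and 88 of the 128 etoposide peaks (68.8%) inside the aligned stretches had a peak on the contig as well. How reads with more than 1 matching place were assigned is not given in the sources used here, so a fragment of 1 origin and fragments of both cannot be told apart.

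Genes are given where the counterpart's summit lay between the ends of a protein-coding gene, and exons and introns were not told apart. CACNA1C, the pore subunit of an L-type calcium channel, held the most counterparts, with 6 untreated and 10 etoposide peaks on KZ208916.1. Another 1 untreated and 2 etoposide peaks lay where it overlaps DCP1B. Its place with most fragments was chr12:2339096-2339641, with 36 untreated and 29 etoposide fragments on the contig beside 32 and 27 on chromosome 12. Another place in it, chr12:2614012-2614264, had 24 and 10 on the contig beside 21 and 9 on the chromosome.

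The contig peak with a counterpart that held most fragments was in HHAT, which encodes the acyltransferase that adds palmitate to Hedgehog proteins. The patch KN538360.1 had 45 untreated and 23 etoposide fragments there, and chr1:210597987-210598282 had 36 and 24. ASB2, a substrate receptor of a ubiquitin ligase, had 30 and 18 fragments on KI270847.1 and 30 and 19 at chr14:93959539-93960018. DDX52, an RNA helicase, held the lowest ratio of all contig places. It had 29 and 10 fragments on KI270857.1 and 28 and 10 at chr17:37614671-37615011. TADA2A, an adaptor of histone acetyltransferase complexes, had 30 and 26 on the same contig and 34 and 27 at chr17:37447676-37448216.

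Some places had more etoposide fragments. The largest ratio was in the read-through gene MPV17L-BMERB1, with 12 untreated and 29 etoposide fragments on KI270853.1 and 10 and 28 at chr16:15415613-15415821. COG5, a subunit of a Golgi tethering complex, had 12 and 19 on KV880765.1 and 13 and 20 at chr7:107372266-107372467. VPS53, a subunit of another Golgi tethering complex, had 15 and 23 at 1 place on KV766196.1 while chr17:694195-694433 had 21 and 21. Over the 45 places whose counterpart was in both lists, the median ratio of etoposide to untreated fragments was 0.818 on the contigs and 0.862 on the chromosomes. The contig ratio was at least 1.5-fold higher at 4 places and lower at 12, and the chromosomal ratio was so at 2 and 9. Both ratios come from the same 2 libraries, so they are no independent measurements of the treatment.

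**Figure D4:**
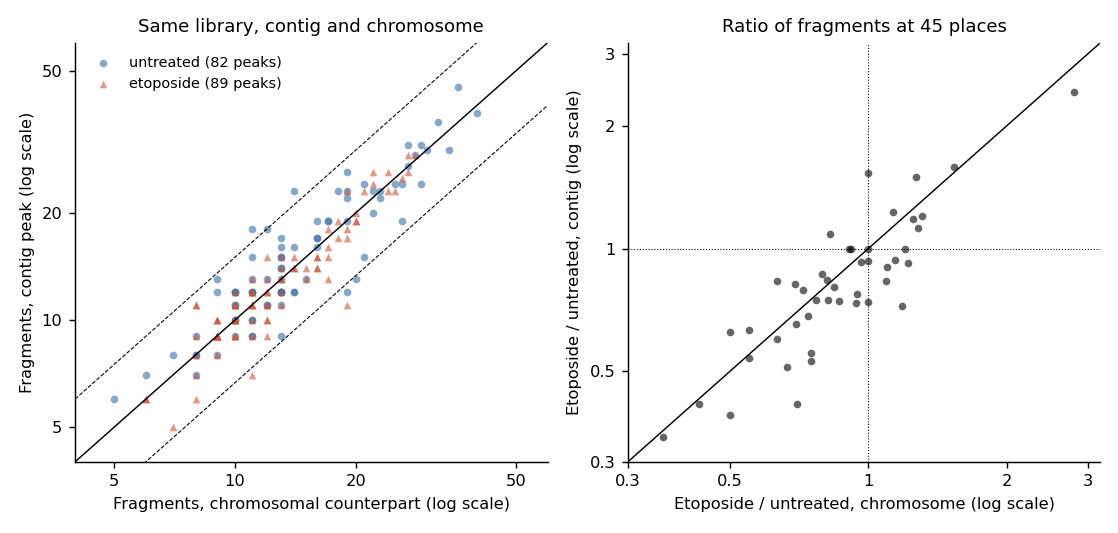
Left, fragments at the summit of 171 contig peaks (vertical) and of their chromosomal counterparts in the same library (horizontal), untreated in blue and etoposide in red, with a solid line at equal numbers and dashed lines at 1.5-fold. Right, the ratio of etoposide to untreated fragments on the contig (vertical) and the chromosome (horizontal) at 45 places listed in both libraries. All axes are logarithmic. Of the 171 peaks 164 lie within the dashed lines, and the right panel runs from DDX52 at 0.345 and 0.357 to MPV17L-BMERB1 at 2.42 and 2.80.

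Whether a peak was shared between the lists was also compared between the copies. For 142 of the 171 peaks (83.0%) the contig peak and its chromosomal counterpart were both shared or both unshared. In 14 cases only the contig peak was shared and in 15 only the chromosomal one. The ZYX peak is 1 of the 14, since its contig peak of 14 fragments had an untreated counterpart and the chromosomal peak of 16 did not. In CACNA1C, the untreated contig peak at KZ208916.1:961715-961965 had 23 fragments and was not shared, while its chromosomal counterpart with 14 fragments was shared.

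Ribosomal RNA genes are repeated in tandem on the short arms of several chromosomes, and the nucleolus forms around them. The annotation has 5 copies of the 45S gene, which encodes the precursor of the 18S, 5.8S and 28S RNAs. RNA45SN4 lies on the unlocalised contig KI270733.1 and RNA45SN5 on the unplaced contig GL000220.1, and RNA45SN1, RNA45SN2 and RNA45SN3 lie on chromosome 21. The copies are near identical, so the reads of 1 copy may have been given to another. RNA45SN4 had 1 untreated peak in 18S with 27 fragments and 1 in 28S with 27, and the etoposide list had 2 in 18S with 25 and 27 and 1 in 28S with 28. RNA45SN5 had 2 untreated peaks in 18S with 19 and 25 fragments, and the etoposide list had 2 in 18S with 28 and 32 and 1 in 28S with 28. Each copy thus had a peak in 18S in both lists.

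The signal over the background was low on these genes. The authors' fold ran from 2.67 to 3.85 over the 10 peaks inside the 2 contig copies. The median background was 6.57 untreated and 8.58 etoposide on RNA45SN4, and 5.85 and 7.81 on RNA45SN5. On the chromosome 21 copies the medians were 5.49 to 6.73 untreated and 7.04 to 8.52 etoposide, and the fragments ran from 20 to 27 and from 23 to 33. The background was higher in the etoposide library on each of the 5 copies, and the numbers on the contig copies lay close to those on chromosome 21.

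**Figure D5:**
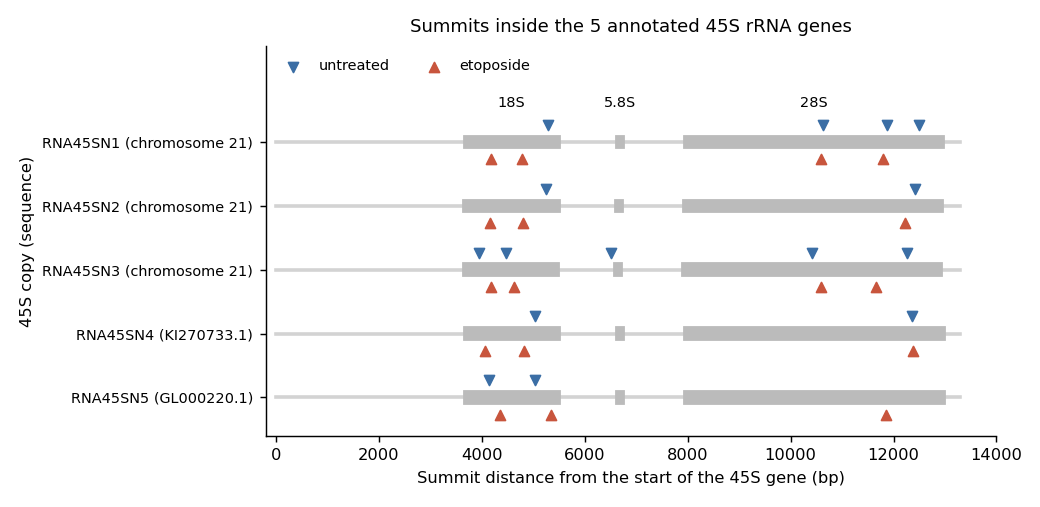
Position of peak summits inside the 5 annotated 45S ribosomal RNA genes, as the distance from the start of each gene in bp, with untreated summits above each line in blue and etoposide summits below in red. Grey boxes are the 18S, 5.8S and 28S parts. Each copy has a summit in 18S in both libraries, and RNA45SN4 and RNA45SN5 are the copies on contigs.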

How the data were processed

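JUNB CUT&RUN was measured in 2 libraries of IMR-90 cells, 1 untreated and 1 treated with etoposide, grouped by the treatment label. The submitters' processing notes name Bowtie2 and MACS2 and the builds hg38 and mm10, without versions or roles. Read filters, settings and any control library are not given in the sources used here. The authors deposited 1 peak list per library, with no header, that gives start, end and summit positions, a score, a fold over background (a ratio) and the -log10 p and q of each summit. The deposited score is 10 times -log10 q, cut to a whole number. Contigs carry GenBank names of GRCh38, and their class is not in the name. It was read from GRCh38 accession ranges known beforehand, as was the place of the 45S copies on 2 contigs. Patches were kept as 1 class.

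Fragments k and background b were worked out with Python 3.11.15, NumPy 2.4.6, pandas 2.3.3 and SciPy 1.17.1 from the deposited fold, taken as (k + 1)/(b + 1), and the deposited -log10 p, taken as the Poisson upper tail. A whole k matched within 0.001 for 100% of peaks, and the step was tested on simulated data. The total depth is unknown. The alignment by peak spacing and its limits were chosen after the data were seen, as were the summaries of aligned places. No genome was used here, so the planned search of peak sequences was not run. Gene and promoter positions are those of RefSeq on GRCh38.p14. The contigs, the gene lists and the groups of peaks were chosen with earlier results of these data known.

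The rule for names took the 20 contigs with most peaks, any contig with at least 5 peaks in 1 list and 0 in the other, the 10 strongest peaks and the 5 strongest unshared peaks of each list, and the shared places with the 5 highest and 5 lowest ratios. It also took 33 genes, among them HLA, MAPT and rRNA genes. All 33 are in the gene table and 0 lay in an aligned stretch. Alternatives changed the -log10 q minimum, list length, joining, overlap, fold, depth and the contigs taken.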

Additional observations from a re-analysis of the deposited data

How the results depend on the processing

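No paired analysis was possible because each condition had 1 library, and for the same reason no replicate could be left out. The ratio of contig peak numbers turned above 1 with the unplaced and unlocalised contigs alone (1.20) and with the 10000 strongest peaks of each list (1.28). With those 10000 the ratio was 1.13 for patches, 1.23 for alternate loci and 1.72 for unplaced and unlocalised contigs, and the contig share of the untreated list was 2.40%. That share was 2.35% where -log10 q had to reach 10. The shared share of untreated contig peaks was 71.3% on unplaced and unlocalised contigs, 37.8% with an overlap of 50% of both peaks, 38.6% with summits within 100 bp, 55.7% where -log10 q reached 10 and 65.8% in the 10000 strongest. The shared share of etoposide contig peaks was 43.0%, 44.0% and 50.3% with the 50% overlap, the 100 bp limit and the 10000 strongest. Places at least 1.5-fold higher numbered 98 after division by the relative depth, and 8 were at least 2-fold higher. Lower places numbered 33 after that division, and 24 were at least 2-fold lower. The contigs aligned numbered 16 with a tolerance of 30 bp, of which 11 were among the 13 aligned with 15 bp, and 136 peaks had a counterpart within 20 bp. The latter alternatives were chosen after seeing the data. The cause of these differences was not tested. Most contig peaks rest on few fragments, so a ratio at a single place has a wide interval.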

Other observations

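GL000258.2 and KI270908.1 are alternate loci with some peaks at nearly the same contig coordinates. This was noticed after the values were seen. At 4 places the summits of 1 list lay 0 to 6 bp apart on the 2 contigs. In the etoposide list both had a summit at base 11338, with 14 fragments on each. Summits at bases 62005 and 62004 had 12 and 13 fragments, and summits at bases 62506 and 62507 had 17 and 16. In the untreated list, summits at bases 32119 and 32125 had 7 and 6. GL000258.2 had 11 peaks in each list, and KI270908.1 had 17 untreated and 12 etoposide peaks.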
